A study of Rattus norvegicus with 13 samples.

Results

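The planar cell polarity core genes are the 9 genes *Vangl1*, *Vangl2*, *Celsr1*, *Celsr2*, *Celsr3*, *Prickle1*, *Prickle2*, *Ptk7* and *Scrib*. Their rows were found by gene name, and all 9 were found among the 14716 rows of the deposited table, each in 1 row. RNA-Seq had been performed on the posterior ventricular epithelium, which the study treats as the ventricular zone (VZ), of male Long Evans rats on PN2. The control group comprised 7 pups of dams given deionized drinking water (0 ppm), and the PTU exposed group comprised 6 pups of dams given 3 ppm propylthiouracil (PTU), a blocker of thyroid hormone synthesis, in the drinking water from early gestation. Each pup came from a different litter, and strain, sex and age were shared by the groups. The epithelium was cut by laser from stained frozen sections of both hemispheres according to its layered appearance, so each library mixes the cell types of that strip, and the RNA was partly degraded.

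Planar cell polarity aligns neighboring cells within the plane of an epithelium. Transmembrane cadherins of the Celsr family bridge adjacent cells, and Vangl with Prickle proteins gather on the side of the cell that faces away from Frizzled with Dishevelled proteins, so that each cell acquires a direction. In the developing nervous system the pathway is known for its role in neural tube closure, and along the ventricle for the orientation of ependymal cilia. Vangl proteins span the membrane and recruit Prickle proteins, which are cytoplasmic LIM domain proteins. Ptk7 is a receptor-like protein without kinase activity that acts in the same pathway, and Scrib is a scaffold that binds Vangl2 and also takes part in apical-basal polarity.

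The region around the transcription start is given for 3 members, *Vangl2* and *Ptk7*, which had lower values in PTU exposed pups, and *Prickle1*, which had a higher mean. The windows are those of RefSeq on the GRCr8 build, 250 bases before to 50 bases after the start, whereas the reads were aligned to mRatBN7.2. Entries were found for 6 of the 9 members, and *Vangl1*, *Celsr1* and *Scrib* were without one. The *Vangl2* window lies at chr13:87021721-87022020 on the minus strand, the *Ptk7* window at chr9:21849506-21849805 on the plus strand and the *Prickle1* window at chr7:126537505-126537804 on the minus strand. Capitals mark the letters GGGCGG, or CCGCCC where that motif lies on the other strand, and TATAAA.
Vangl2: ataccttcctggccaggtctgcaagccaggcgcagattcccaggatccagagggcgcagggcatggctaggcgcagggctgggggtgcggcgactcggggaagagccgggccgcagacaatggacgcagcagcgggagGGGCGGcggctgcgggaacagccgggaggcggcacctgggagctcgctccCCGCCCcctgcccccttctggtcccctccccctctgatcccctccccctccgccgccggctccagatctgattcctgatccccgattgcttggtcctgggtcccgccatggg
Ptk7: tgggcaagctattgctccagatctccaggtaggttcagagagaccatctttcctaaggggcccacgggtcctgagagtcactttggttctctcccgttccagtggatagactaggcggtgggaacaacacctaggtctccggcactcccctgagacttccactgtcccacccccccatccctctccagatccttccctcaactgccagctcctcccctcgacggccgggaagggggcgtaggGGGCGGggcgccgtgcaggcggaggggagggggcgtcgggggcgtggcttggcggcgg
Prickle1: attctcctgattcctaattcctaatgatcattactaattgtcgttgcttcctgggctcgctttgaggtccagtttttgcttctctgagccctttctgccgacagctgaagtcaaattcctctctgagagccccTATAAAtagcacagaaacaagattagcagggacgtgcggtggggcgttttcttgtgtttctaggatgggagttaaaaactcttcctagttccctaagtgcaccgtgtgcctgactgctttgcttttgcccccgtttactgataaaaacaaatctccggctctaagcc

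The *Vangl2* window has a GC content of 71.3% with 22 CG pairs, the *Ptk7* window 65.3% with 17, and the *Prickle1* window 46.3% with 9. Over all 33469 windows of that length, the median was 51.7% with 7 CG pairs. Searched on both strands, GGGCGG was found in 33.1% of all windows and TATAAA in 14.2%. *Vangl2* holds GGGCGG 2 times and *Ptk7* holds it 1 time, while the capitals of *Prickle1* are TATAAA. The windows not shown do not divide in this way. *Celsr3*, with a higher mean, holds GGGCGG 1 time at a GC content of 60.3%. Those of *Prickle2*, also with a higher mean, hold it 1 and 3 times at 55 and 65.7%. *Celsr2*, with a lower mean, holds it 0 times at 76.3%. A relation of these letters to the values was not tested. The letters AGGTCA, a core motif of many nuclear receptors, were found in 16.2% of all windows, and their direct repeat AGGTCANNNNAGGTCA in 0.00598%. Neither was present in a window of the 6 members with an entry, which says only that these letters are not in these windows.

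Over all rows, an estimated 22287003 to 43500351 reads lay behind the values of each control pup and 28408142 to 44379392 behind those of each PTU exposed pup. The 3 highest rows took 32.4 to 60.1% of these reads in control pups and 23.9 to 57.0% in PTU exposed pups. All 10 listed markers of radial glia, the progenitors of the VZ, were measured, including *Sox2*, *Pax6* and *Vim*. With limma on log2(normalized count + 1), 0 of 14606 tested rows had an adjusted p of at most 0.05, whereas 2383 rows (16.3%) had an unadjusted p under 0.05. The groups did not overlap in 87 rows (0.596%).

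None of the 9 core genes passed the adjusted threshold in limma, against 0% of all rows. With an unadjusted p under 0.05 there were 4 members, *Vangl1*, *Vangl2*, *Celsr1* and *Ptk7*, against 16.3% of all rows, and all 4 had lower values in PTU exposed pups, where 8.20% of all rows did, while 0 were higher, beside 8.11% of all rows. The other 5 members did not reach it. In total 6 members had a lower and 3 a higher log2 fold change, beside 49.3 and 50.7% of all rows, with a median of -0.15 beside 0.00 over all tested rows. The groups overlapped in each of the 9 genes. In these bulk samples, fewer cells of a type and less RNA per cell cannot be told apart.

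**Figure D1:**
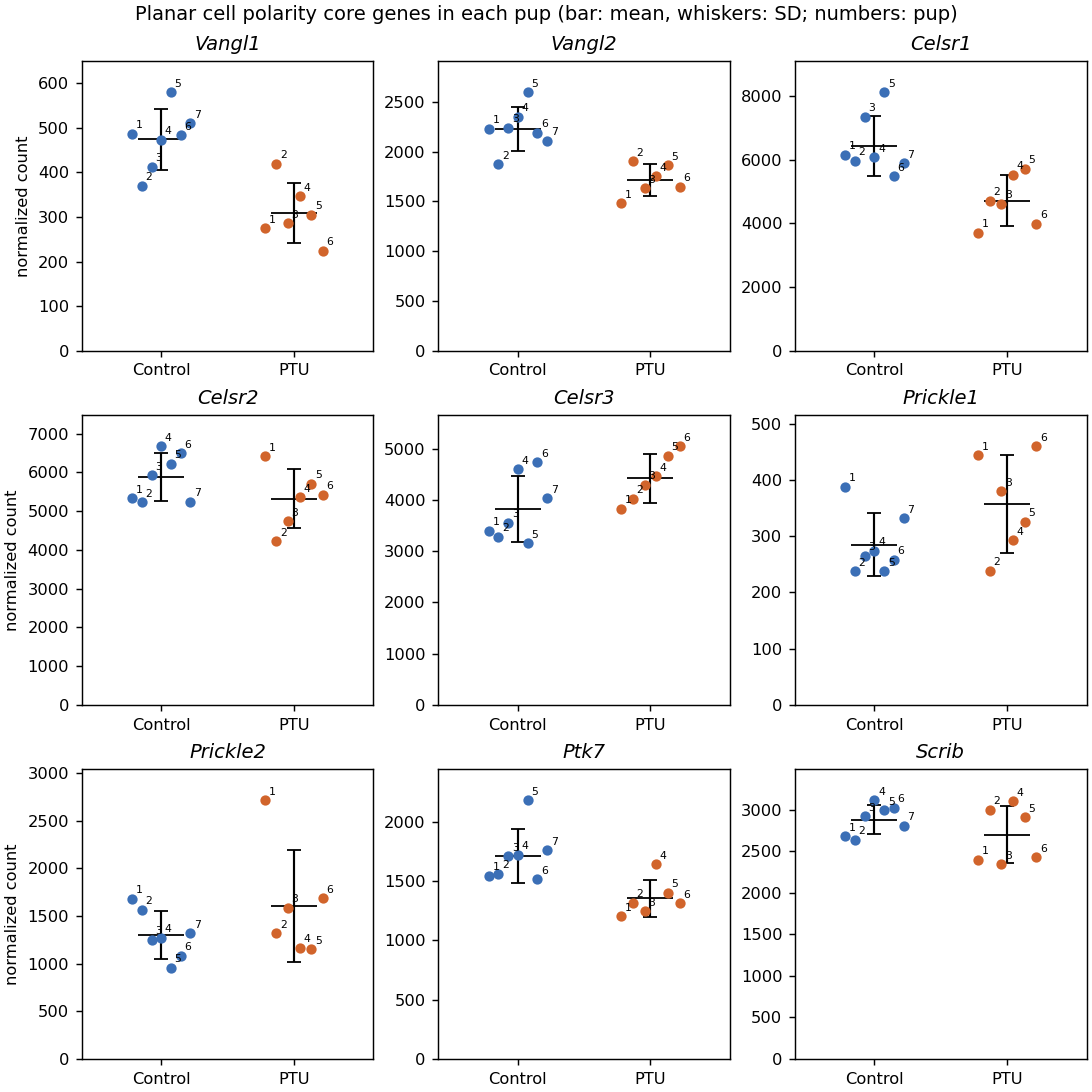
Normalized count (linear axis from 0) of each core gene in each pup, with control pups in blue and PTU exposed pups in orange; the bar is the group mean, the whiskers the SD, and the small number the pup. For *Vangl1*, *Vangl2* and *Ptk7*, 5 of 6 PTU exposed pups lie below the lowest control pup, and *Prickle2* has a single high PTU exposed pup at 2716.

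*Vangl1* (ENSRNOT00000118127) ranged from 369.9 to 580.0 normalized counts among controls (median 483.5) and 224.8 to 419.7 after PTU exposure (median 295.9). Of the PTU exposed pups, 5 of 6 were below the lowest control pup, and PTU pup 2 alone lay within the control range. The mean was 34.6% lower, moving from 474 ± 67.6 (SD, n = 7) to 310 ± 67.1 (SD, n = 6), with a log2 fold change of -0.63 (SE 0.15, unadjusted p = 0.000516, adjusted p = 0.122 in limma). A two-sided exact permutation test, which regroups the 13 pups in all 1716 ways, gave p = 0.00291. *Vangl1* is the less studied of the Vangl pair and can act together with *Vangl2*.

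*Vangl2* (ENSRNOT00000006849), whose loss leaves the neural tube open in mice, had 1874 to 2597 normalized counts among controls (median 2228) and 1484 to 1904 after PTU exposure (median 1700). Again 5 of 6 PTU exposed pups were below the lowest control pup, and PTU pup 2 was the highest of its group. The log2 fold change was -0.38 (SE 0.09, unadjusted p = 0.000395, adjusted p = 0.122 in limma; exact permutation p = 0.00175), a mean 23.0% lower. Without PTU pup 2 the adjusted p in limma was 0.0324 for *Vangl1* and 0.0394 for *Vangl2*, in a fit that called 179 of 14608 rows, 118 of them lower, in place of 0. No other core gene reached 0.05 without that pup or without any other single pup.

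*Ptk7* (ENSRNOT00000113952), the receptor-like member, ranged from 1514 to 2183 normalized counts among controls (median 1711) and 1206 to 1641 after PTU exposure (median 1315). Control pup 5 stood above the other controls, and 5 of 6 PTU exposed pups were below the lowest control pup. Its mean was 21.0% lower, with a log2 fold change of -0.34 (SE 0.10, unadjusted p = 0.00301, adjusted p = 0.148 in limma; exact permutation p = 0.00466). A drop of at least that size was found in 11.5% of all tested rows.

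The Celsr genes encode cadherins that span the membrane several times and are the counterparts of the fly gene flamingo. *Celsr1* (ENSRNOT00000036025), the family member typical of progenitors, ranged from 5489 to 8125 normalized counts among controls (median 6090) and 3716 to 5720 after PTU exposure (median 4672). All 6 PTU exposed pups were below the control mean and 4 below the lowest control pup. The mean was 26.7% lower, with a log2 fold change of -0.45 (SE 0.11, unadjusted p = 0.000917, adjusted p = 0.127 in limma; exact permutation p = 0.00233).

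*Celsr2* (ENSRNOT00000027263), expressed in progenitors and in neurons, gave 5227 to 6674 normalized counts among controls (median 5924) and 4229 to 6420 after PTU exposure (median 5390). The groups overlapped widely, with 2 PTU exposed pups below the lowest control pup. The log2 fold change of -0.15 (SE 0.10, adjusted p = 0.452 in limma; exact permutation p = 0.163) was within the spread between pups, and it became 0.052 under a common total for all pups.

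*Celsr3* (ENSRNOT00000112823), known from postmitotic neurons and their axon tracts, gave 3156 to 4738 normalized counts among controls (median 3555) and 3828 to 5049 after PTU exposure (median 4380). All 6 PTU exposed pups were above the control mean of 3826 ± 643 (SD, n = 7), and 2 were above the highest control pup. Its log2 fold change of 0.22 (SE 0.11) did not pass the test (unadjusted p = 0.0555, adjusted p = 0.318 in limma; exact permutation p = 0.0810).

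Prickle proteins bind Vangl at the membrane. *Prickle1* (ENSRNOT00000036750) ranged from 238 to 388 normalized counts among controls (median 265) and 238 to 460 after PTU exposure (median 353). Above the control mean were 5 of 6 PTU exposed pups, and the lowest pups of both groups were nearly equal. The log2 fold change was 0.31 (SE 0.17, adjusted p = 0.377 in limma; exact permutation p = 0.107).

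*Prickle2* (ENSRNOT00000016628) ranged from 960 to 1680 normalized counts among controls (median 1271) and 1149 to 2716 after PTU exposure (median 1456). PTU pup 1 was far above the other PTU exposed pups, the next of which had 1690. The log2 fold change was 0.26 (SE 0.18, adjusted p = 0.486 in limma; exact permutation p = 0.260) and 0.090 without PTU pup 1.

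*Scrib* (ENSRNOT00000045280) ranged from 2640 to 3114 normalized counts among controls (median 2922) and 2347 to 3102 after PTU exposure (median 2670). The PTU exposed pups were divided, with 3 below the lowest control pup and 3 above the control mean. The log2 fold change was -0.10 (SE 0.08, adjusted p = 0.562 in limma; exact permutation p = 0.206), and it became 0.10 under a common total for all pups.

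Scaling all pups to a common total lets the few very high rows set the scale of each pup, and it moved the median log2 fold change of all tested rows from 0.00 to 0.20. Under it the median of the 9 members was 0.052, and 1 member in place of 4 had an unadjusted p under 0.05, *Celsr3* with a higher value. Of all rows 1665 then had one, 1584 of them higher and 81 lower. By any amount, 11473 of the 14606 tested rows were then higher and 3133 lower. The log2 fold changes of *Vangl1*, *Vangl2*, *Celsr1* and *Ptk7* were then -0.43, -0.17, -0.25 and -0.14, still below that of the median row. Those of *Celsr2* and *Scrib*, at 0.052 and 0.10, changed sign but were also still below it. Those of *Celsr3*, *Prickle1* and *Prickle2* were 0.42 (unadjusted p = 0.0255 in limma), 0.51 and 0.46.

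Ratios between members of a family within a pup do not depend on the scaling of that pup, and 5 of them were compared between groups by the exact permutation test. These ratios were added after the values had been seen. The height of a ratio also carries the lengths of the transcripts, so only its difference between groups is read. The log2 ratio of *Celsr1* to *Celsr3* ranged from 0.21 to 1.36 in control pups and from -0.34 to 0.31 in PTU exposed pups. Only PTU pups 2, 4 and 5 reached into the control range, above control pup 6. Its mean moved from 0.76 ± 0.40 (SD, n = 7) to 0.08 ± 0.24 (SD, n = 6), a difference of -0.67 (exact permutation p = 0.00525, adjusted over the 5 ratios 0.0262), and p stayed at or below 0.0126 with any 1 pup left out.

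*Celsr2* to *Celsr3* showed a difference of -0.37 in the log2 ratio, from 0.63 ± 0.20 (SD, n = 7) to 0.26 ± 0.25 (SD, n = 6; exact permutation p = 0.0163, adjusted 0.0408). PTU pup 1, at 0.75, was the only PTU exposed pup above the lowest control pup. For *Celsr1* to *Celsr2* the difference was -0.30, from 0.13 ± 0.23 to -0.18 ± 0.36 (exact permutation p = 0.0909, adjusted 0.114), and with 1 pup left out the unadjusted exact p ranged from 0.0346 to 0.206, under 0.05 in 2 of 13 cases. Without PTU pup 1 that difference was -0.18.

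*Vangl1* to *Vangl2* had a log2 ratio of -2.24 ± 0.13 (SD, n = 7) among controls and -2.49 ± 0.24 (SD, n = 6) among exposed pups, a difference of -0.25 (exact permutation p = 0.0274, adjusted 0.0457). The ranges overlapped, from -2.44 to -2.05 and from -2.87 to -2.18. With any 1 pup left out the difference stayed between -0.31 and -0.17. Its exact permutation p depended on single pups and was above 0.05 without control pup 5, 6 or 7 or PTU pup 5 or 6. That p was highest, at 0.0694 with a difference of -0.17, without PTU pup 6. *Prickle1* to *Prickle2* gave -2.19 ± 0.25 and -2.14 ± 0.33, a difference of 0.05 (exact permutation p = 0.747) that was below 0 without control pup 2 or PTU pup 5.

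**Figure D2:**
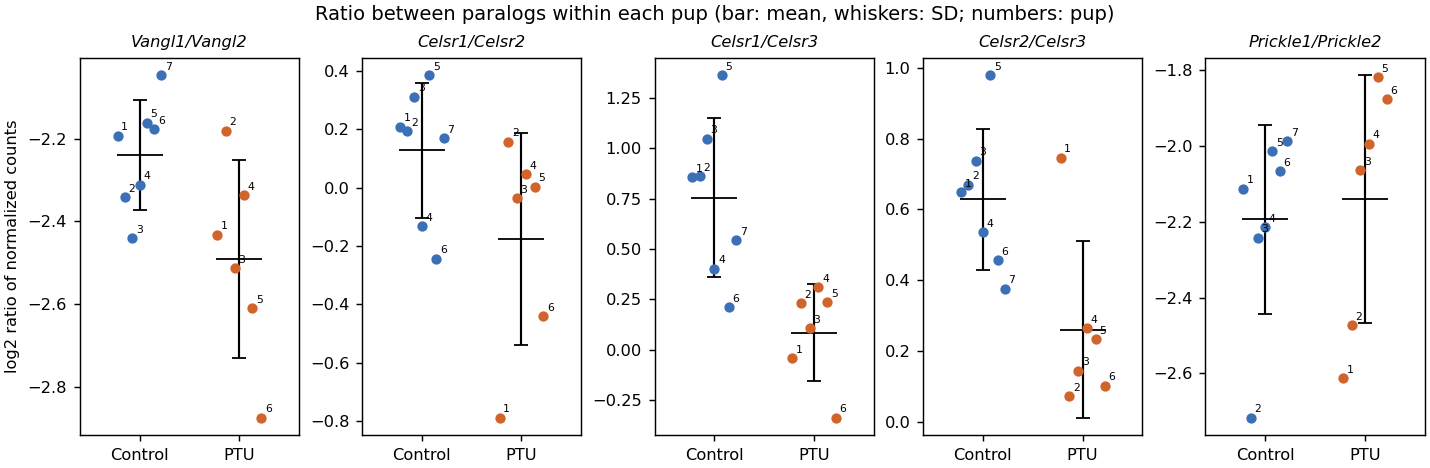
Log2 ratio of the normalized counts of each family pair within each pup, with control pups in blue and PTU exposed pups in orange; the bar is the group mean, the whiskers the SD, the small number the pup, and the vertical axes differ between panels and do not start at 0. The ratio of *Celsr1* to *Celsr3* is between -0.34 and 0.31 in PTU exposed pups and between 0.21 and 1.36 in control pups, and the ratio of *Prickle1* to *Prickle2* overlaps widely between the groups.

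Under the scaling of the deposited values, and after group means were subtracted, the correlations between members over the 13 pups had both signs. Of 36 pairs, 19 had a positive and 17 a negative Pearson r, and 3 passed with a p adjusted over the 36 pairs. *Celsr1* and *Ptk7* varied together (r = 0.78, Spearman's coefficient 0.72, permutation p = 0.00186, adjusted 0.0391), and r was 0.70 without the 2 pups farthest from the median. *Vangl2* varied inversely to *Prickle2* (r = -0.77, Spearman's coefficient -0.78, permutation p = 0.00217, adjusted 0.0391), with r = -0.76 without the 2 farthest pups. *Scrib* also varied inversely to *Prickle2* (r = -0.78, Spearman's coefficient -0.79, permutation p = 0.00388, adjusted 0.0466), with r = -0.82 without the 2 farthest pups. By Spearman's coefficient, 0 of the 36 pairs passed the adjustment.

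The signs of the negative pairs depended on the scaling. Given a common total, all 36 r were positive, with 0.71 for *Vangl2* and *Prickle2* and 0.80 for *Scrib* and *Prickle2*, and 25 pairs passed.

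**Figure D3:**
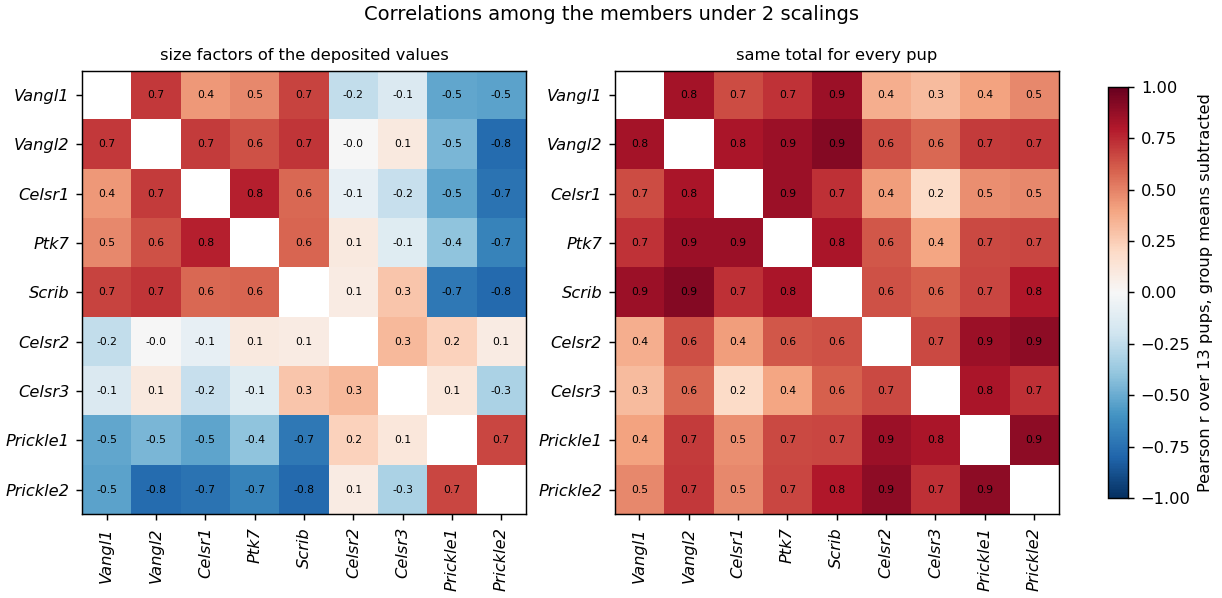
Pearson r between the core genes over the 13 pups after group means were subtracted, under the size factors of the deposited values (left) and under a common total (right); red is positive, blue is negative, and the printed value is r. On the left *Vangl1*, *Vangl2*, *Celsr1*, *Ptk7* and *Scrib* are positive among themselves and negative with both Prickle genes, while on the right all 36 pairs are positive.

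The rows whose pattern was most like that of *Vangl2*, among 11085 named rows with a mean of at least 100 and with group means subtracted over 13 pups, were *Hdac7* (r = 0.90), *Zfp775* (0.88), *Phlda3* (0.87), *Efnb1* (0.87) and *Gatd1* (0.86). *Scrib* ranked 133 in that order (r = 0.71), *Vangl1* 153 (0.71), *Celsr1* 162 (0.70) and *Ptk7* 313 (0.64). Further down were *Celsr3* at 4337 (0.09), *Celsr2* at 5364 (-0.0043), *Prickle1* at 9850 (-0.46) and *Prickle2* at 11052 (-0.77). These values are a description of 13 libraries that share their size factors with the members.

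Another 59 genes of the pathway were listed in 8 groups by their role, and 54 of them were measured. In limma 0 passed the adjusted threshold, 12 had an unadjusted p under 0.05 with a lower and 3 with a higher value (15 of 54, beside 16.3% of all rows). Lower log2 fold changes were found in 32 and higher in 22, beside 49.3 and 50.7% of all rows, with a median of -0.06. Given a common total for all pups, 15 were lower and 39 higher, beside 3133 lower and 11473 higher of the 14606 tested rows. Then 7 genes had an unadjusted p under 0.05 in limma, 3 of them lower and 4 higher, beside 81 and 1584 of those rows. These counts of all rows also stand beside the common-total counts of each group below. The groups did not overlap in 2 genes, *Gpc4* and *Dlg1*, beside 0.596% of all rows.

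Of 7 receptors and coreceptors, 5 were lower and 0 higher at an unadjusted p under 0.05, where 8.20 and 8.11% of all rows were, and the median log2 fold change was -0.31. Under a common total for all pups 5 of the 7 were still lower, with *Gpc4* alone at an unadjusted p under 0.05. The glypican *Gpc4*, a cell surface coreceptor for Wnt ligands, had 1466 ± 316 normalized counts (SD, n = 7) among controls, and 859 ± 175 (SD, n = 6) among exposed pups, and its log2 fold change was -0.77 with an adjusted p of 0.122 in limma. Frizzled receptors had lower means, with log2 fold changes of -0.23 for *Fzd3*, which acts with Celsr2 and Celsr3 in axon tracts, -0.38 for *Fzd6* and -0.31 for *Fzd7*, and adjusted p-values in limma of 0.250, 0.228 and 0.265. *Ror1*, a Wnt5a receptor, was at 107 ± 37.7 (SD, n = 7) and 61.0 ± 26.3 (SD, n = 6), with a log2 fold change of -0.86, while that of its relative *Ror2* was 0.00.

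Among 6 measured ligands, 2 were lower at an unadjusted p under 0.05, beside 8.20% of all rows, and 0 under a common total for all pups, where 3 of the 6 had a lower value. *Wnt7a*, a Wnt ligand of the forebrain, had a log2 fold change of -0.29 (adjusted p = 0.237 in limma), or -0.086 under a common total, and *Rspo3*, an enhancer of Wnt signaling, was low in both groups at 54.8 ± 26.5 (SD, n = 7) and 29.3 ± 21.2 (SD, n = 6). *Wnt5a*, the ligand most often tied to planar polarity, was at 397 ± 64.0 and 413 ± 72.5 (log2 fold change 0.06, adjusted p = 0.884).

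Of 9 cytoplasmic partners, *Prickle3* had an unadjusted p under 0.05, with 49.3 ± 9.19 (SD, n = 7) and 27.0 ± 11.97 (SD, n = 6) normalized counts and a log2 fold change of -0.96 (adjusted p = 0.179 in limma). The Dishevelled genes, which relay the Frizzled signal, had log2 fold changes of 0.01 for *Dvl1*, -0.26 for *Dvl2* and -0.07 for *Dvl3*, with unadjusted p-values in limma of 0.946, 0.165 and 0.363. Lower values were found for 6 of the 9 partners, with 1 of 9 at an unadjusted p under 0.05 beside 8.20% of all rows, and for 2 under a common total, where *Dvl3* was at 0.13. None of the 4 genes of the Fat and Dachsous system, a parallel polarity pathway of giant cadherins, had an unadjusted p under 0.05, and neither did any of 4 genes for trafficking and turnover. Under a common total *Dchs2*, at 0.65, was higher with an unadjusted p of 0.0112.

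Of 5 listed planar polarity effectors at cilia 4 were measured, and all 4 had a lower log2 fold change, against 1 of 4 under a common total. *Fuz*, an effector in ciliogenesis, went from 256 ± 42.7 (SD, n = 7) to 180 ± 42.8 (SD, n = 6) normalized counts, a log2 change of -0.52 with an adjusted p of 0.174 in limma, and the other 3 had unadjusted p-values of at least 0.498. *Mapk8* and *Mapk10*, which encode JNK kinases and were not listed among these effectors, were higher at an unadjusted p under 0.05, beside 8.11% of all rows. They were higher by 0.22 and 0.51 on the log2 scale, and their adjusted p-values in limma were 0.221 and 0.199. The formin *Daam2*, which binds Dishevelled and was likewise not listed among these effectors, had a lower value, with a log2 change of -0.44 and an adjusted p of 0.174 in limma.

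In the Scribble module, the scaffolds that work with Scrib at cell junctions, *Dlg1* ranged from 1861 to 2384 normalized counts among controls (median 1988) and 1444 to 1705 after PTU exposure (median 1627). Every PTU exposed pup was below every control pup on this scale. The log2 fold change was -0.37 (SE 0.08, unadjusted p = 0.000267, adjusted p = 0.122 in limma; exact permutation p = 0.000583, the smallest the 1716 regroupings allow). Under a common total for all pups it was -0.17 with an unadjusted p of 0.417, and of the 9 measured genes of the module 2 in place of 6 had a lower value. *Llgl2* was low and lower in PTU exposed pups, at 96.8 ± 42.7 (SD, n = 7) and 47.2 ± 24.8 (SD, n = 6), while *Dlg4*, which encodes the synaptic scaffold PSD-95, moved from 1543 ± 206 to 2216 ± 908 (log2 fold changes -1.14 and 0.45, adjusted p = 0.191 and 0.245 in limma).

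**Figure D4:**
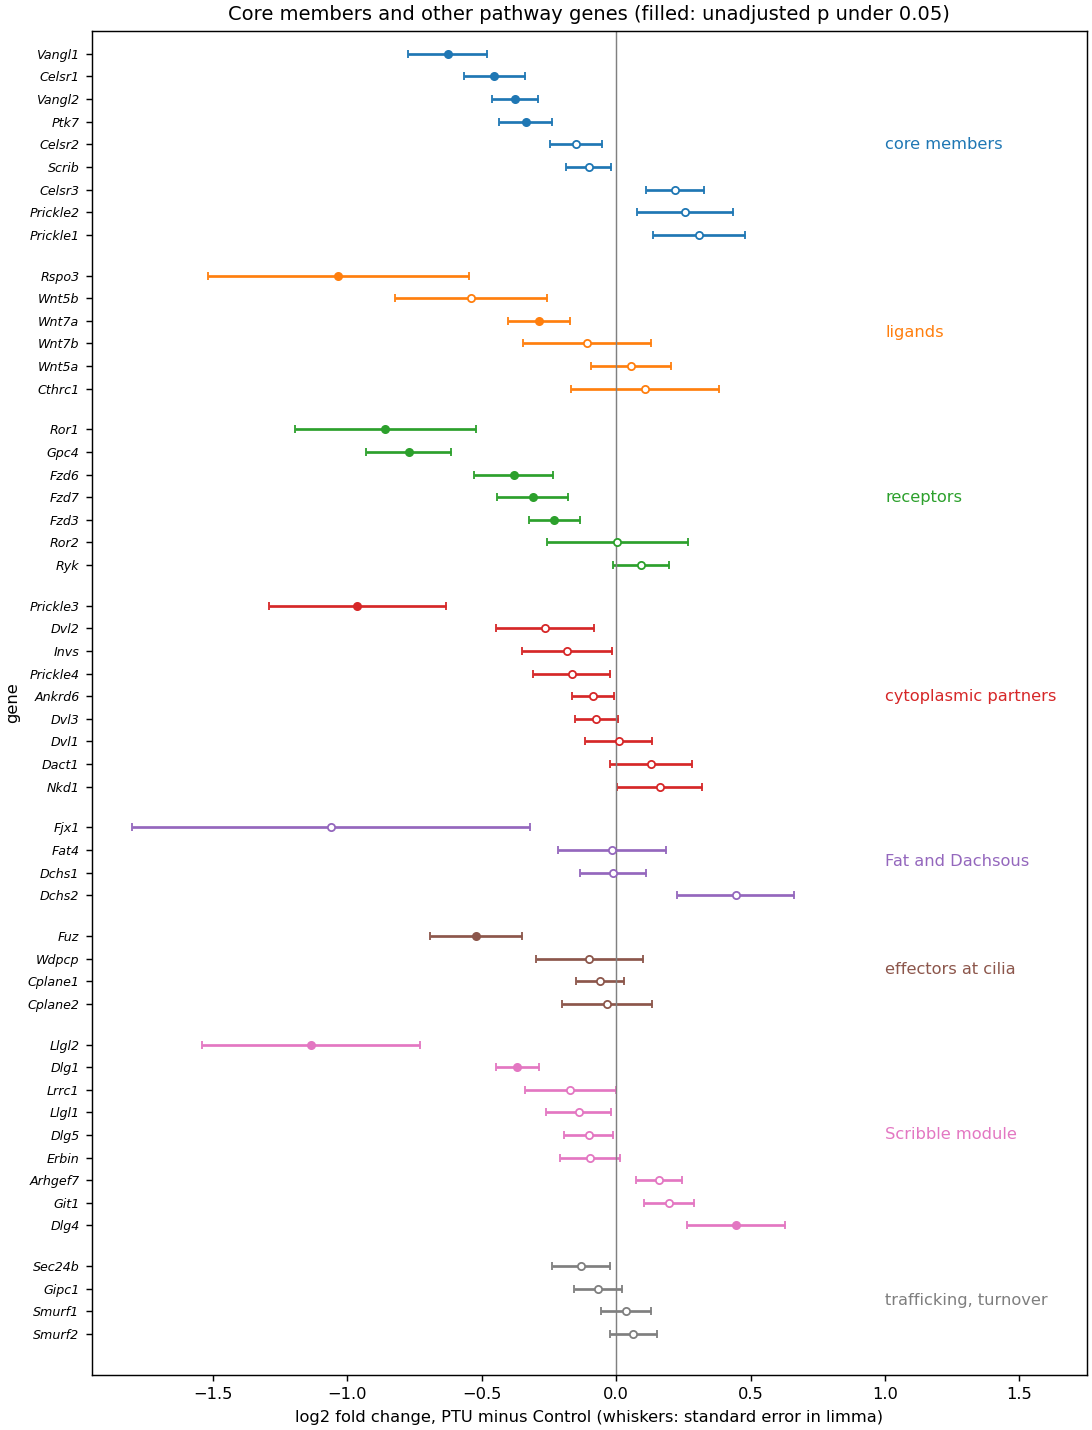
Log2 fold change (PTU minus control, from limma on log2(normalized count + 1)) of the 9 core members and 43 of the 54 measured pathway genes, grouped by role; whiskers are the standard error and filled points have an unadjusted p under 0.05. Filled points lie to the left of 0 for 4 members and 11 pathway genes and to the right for *Dlg4*, whereas the 11 genes not drawn ran mostly the other way (9 of 11 higher, with 2 higher and 1 lower at an unadjusted p under 0.05), so that all 54 give 12 lower and 3 higher.

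Lists of cell type markers are read beside all rows, of which 49.3% were lower and 50.7% higher by any amount and 8.20 and 8.11% at an unadjusted p under 0.05. Under a common total for all pups, 3133 of the 14606 tested rows were lower and 11473 higher, 81 and 1584 of them at that threshold. The 10 radial glia markers all had lower values in PTU exposed pups, 5 with an unadjusted p under 0.05 (8 of 10 and 0 under a common total), and their summed normalized counts ranged from 84208 to 114060 in control pups and from 70153 to 91548 in PTU exposed pups. Of 12 neuron markers, 11 were higher, 5 with an unadjusted p under 0.05 (12 and 6 under a common total), with sums from 55211 to 79665 and from 71356 to 129240. PTU pup 1, the pup with the highest neuron sum, was also the highest for *Prickle2* and the lowest for *Vangl2* and *Celsr1* among the 13 pups, while control pup 5, with the lowest neuron sum, was the highest for *Vangl1*, *Vangl2*, *Celsr1* and *Ptk7*. Control pup 4, with the highest neuron sum of its group, had the second highest *Vangl2* and the highest *Scrib* of all pups.

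All 10 choroid plexus markers were lower, 6 with an unadjusted p under 0.05 (10 and 2 under a common total), and *Ttr*, the most abundant of them, went from a mean of 91587 to 51490. By the study's account the choroid plexus was not part of the captured tissue. The sums of its markers ranged from 51412 to 143630 in control pups and from 23906 to 103010 in PTU exposed pups. Markers of ependymal cells, which align their cilia through this pathway, were lower in 8 of 8 measured, 2 with an unadjusted p under 0.05 (5 of 8 and 0 under a common total), with sums from 3493 to 6906 and from 2800 to 5569, and *Foxj1* and *Ccno* were not among the rows. Higher values were found for 1 of 5 markers of intermediate progenitors, 4 of 6 of endothelial cells, 5 of 8 of microglia and 5 of 5 of oligodendrocyte precursors (3, 5, 7 and 5 under a common total). In each of these lists 1 marker had an unadjusted p under 0.05, *Eomes*, *Slco1c1* and *C1qa* with a lower and *Cspg4* with a higher value. Under a common total none of the 3 lower ones remained, and *Esam* (endothelial), *Olig1* and *Cspg4* were higher. The sums of all 8 lists overlapped between groups. No measured marker was at 0 in every pup, and the part of these cell types in the values of the core genes was not tested.

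**Figure D5:**
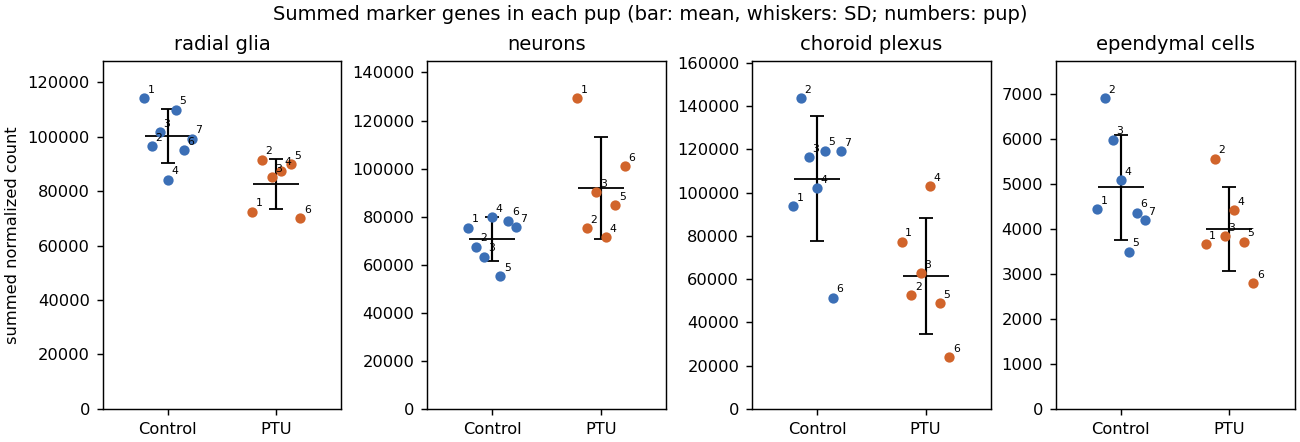
Summed normalized counts of marker genes of radial glia, neurons, choroid plexus and ependymal cells in each pup (axes from 0), with control pups in blue and PTU exposed pups in orange; the bar is the group mean, the whiskers the SD and the small number the pup. Radial glia, choroid plexus and ependymal sums are lower on average and neuron sums higher in PTU exposed pups, and the groups overlap in all 4 panels.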

How the data were processed

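Per the labels and methods, the authors prepared stranded total RNA libraries with rRNA depletion, used STAR 2.7.8a and the mRatBN7.2 genome for alignment of trimmed reads, quantified them by expectation/maximization and applied median ratio normalization. The table deposited by the authors thus holds a scaled, non-negative signal (normalized counts), not raw counts; its rows carry Ensembl identifiers although a RefSeq annotation was used per the methods. The columns of the authors' own DESeq2 comparison (p-value, FDR, ratio, fold change and group means) were not used. Low values were whole multiples of 1 step per pup in 88.9 to 90.5% of cases (tolerance 0.05 steps), short of the 95% set for recovering reads, so depth is an estimate and no count model was run.

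Of the deposited rows, 1488 have no gene name. The 14606 rows that averaged 10 or more were put on the scale log2(normalized count + 1), where changes of low genes are understated, and compared with limma 3.58.1 in R 4.3.3 (variance trend, Benjamini-Hochberg adjusted p, threshold 0.05). Single values used a two-sided exact permutation test over 1716 regroupings, and correlations 100000 permutations within groups. Permutations were run in Python 3.11.15 (scipy 1.17.1, pandas 2.3.3, numpy 2.4.6), and figures were drawn with matplotlib 3.10.9. The methods were tested on simulated data. The members, lists and tests were chosen with earlier results of these data known. Every member was named, with the 12 pathway genes of smallest p under 0.05, the Dvl and Fzd genes and *Wnt5a*. *Rspo3*, *Ror2*, *Dchs2* and the markers named were added after their values were seen. Alternatives were pseudocounts of 0.1 and 10, other filters and scalings, array weights, no variance trend, a replicate block, rows summed by gene name, and each pup left out. Marker lists were those of radial glia, intermediate progenitors, neurons, ependymal cells, choroid plexus, endothelial cells, microglia and oligodendrocyte precursors. A group of 11 pathway genes, mostly higher in PTU exposed pups, enters the totals but is not described as a group here.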

Additional observations from a re-analysis of the deposited data

Results flagged for a closer look

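In 54 groups of pups, over 27 genes, 3 held a pup whose gap to its nearest neighbor was large for the range of its group; chance flags about 1 in 20 groups. *Prickle2* was at 2715.72 normalized counts in PTU pup 1, beside 1689.59 in the next PTU exposed pup, a gap of 0.655 of the range (critical value 0.625). *Ptk7* was at 2182.74 in control pup 5, beside 1761.22 in the next control pup (0.631 of the range, critical value 0.568). *Fzd3* was lowest in the same control pup, at 1821.74 beside 2236.47 (0.642 of the range, critical value 0.568).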

How the results depend on the processing

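Over 24 alternatives for each of the 9 members, 212 of 216 log2 fold changes kept their direction and their side of the threshold. Since 0 members passed the adjusted threshold in the main fit, this count does not register values that became smaller. For *Vangl2*, -0.17 under a common total in place of -0.38 is counted as kept. Under a common total for all pups, *Celsr2* became 0.052, *Scrib* 0.099 and the median of the members 0.052, beside a median of 0.20 over all tested rows. The members with an unadjusted p under 0.05 then numbered 1 and the pathway genes 7, while 25 correlations passed in place of 3 (TMM factors 7). Rows called in limma numbered 40 with array weights and 18 with the replicate block, and from 0 to 179 with 1 pup left out. Members called ranged from 0 to 2 with 1 pup left out, 2 being reached without PTU pup 2 (*Vangl1* -0.72, *Vangl2* -0.41). Over all alternatives their adjusted p in limma ranged from 0.0324 to 0.447 and from 0.0394 to 0.656. Members with an unadjusted p under 0.05 ranged from 4 to 6 with 1 pup left out, and pathway genes from 10 to 16. The cause was not tested. With 1 pup left out, the log2 ratio difference ranged from -0.31 to -0.17 for *Vangl1* to *Vangl2*, from -0.37 to -0.18 for *Celsr1* to *Celsr2* (exact permutation p from 0.0346, without control pup 6, to 0.206, without PTU pup 1, and 0.0492 without PTU pup 2; under 0.05 in 2 of 13), and from -0.034 to 0.15 for *Prickle1* to *Prickle2*, which was -0.034 without control pup 2 and -0.011 without PTU pup 5. The replicate numbers belong to different litters and were not taken to pair the pups, since the correlation of deviations was over 0.1 in 4 of 6 numbers and not in all (from -0.07 to 0.20, with 3 of 6 best with the own number, a hint from the data only). With the replicate block 0 members were called and 6 had an unadjusted p under 0.05, 4 lower and 2 higher (*Celsr3* and *Prickle1*), beside 2955 of all rows. *Celsr2* was -0.087 without PTU pup 2, *Scrib* -0.064 without PTU pup 3 and *Prickle2* 0.090 without PTU pup 1. Low rows such as *Prickle3* and *Llgl2* rest on few reads and have wide errors.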
